A study of Rattus norvegicus with 18 samples.

Results

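Potassium channel genes were examined in the hippocampus of rats after pilocarpine-induced status epilepticus (SE). They were taken as all genes whose symbol starts with Kcn, which covers the pore-forming and auxiliary subunits of the voltage-gated, calcium-activated, sodium-activated, inward rectifier and tandem-pore (K2P) channels. Kcne2 and Kcnj13 were left out by rule; both are also markers of the choroid plexus, a tissue beside the hippocampus. Over the arrays of every group both ranged widely, Kcne2 from 0.434 to 11.3 and Kcnj13 from 0.221 to 24.7. The rule used gene names and no measured value, but it was set with earlier results of these data known. It gave 72 genes of the 12344 named on the arrays, carried by 105 of 33849 gene probes, and each gene is represented by its brightest probe.

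Hippocampal total RNA of adult male Wistar rats was measured on CodeLink Rat Whole Genome arrays, 1 array per rat and 18 in all. The rats of the pilocarpine groups had received scopolamine methylnitrate, which blocks peripheral cholinergic effects, before pilocarpine, a muscarinic agonist, and diazepam was given to stop the SE that followed. They form D3 (3 days after SE, n = 5), D7 (7 days after SE, n = 5) and Chronic (shortly after the first spontaneous seizure, n = 5). Control holds 3 saline-treated rats, the single control arrays analysed here for 3 days (replicate 26), 7 days (replicate 36) and Chronic (replicate 47). The pilocarpine groups can hold survivors of SE only.

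Potassium channels set the resting potential of neurons, repolarize them after each action potential and limit how fast they fire. Voltage-gated pore subunits assemble as tetramers, and silent subunits and auxiliary proteins change where and how these pores work. Astrocytes use inward rectifier channels to take up potassium released by active neurons, and microglia and vascular cells express channels of their own.

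Values are normalized intensities on a linear scale, with the median spot of each array near 1, and each spot is flagged G (good) or L (low signal). The brightest probe was flagged G on all 18 arrays for 43 of the 72 genes, on some arrays for 25, and on none for Kcne1, Kcng4, Kcnj1 and Kcnj15. It was flagged L on at least 9 arrays for 15 genes. Of the 72 genes, 44 had 1 probe and 28 had several. Differences were tested with limma over all 33800 tested probes and are given as log2 differences ± standard error with the Benjamini-Hochberg adjusted p. A gene is said to have risen or fallen where the adjusted p was under 0.05, and a 2-fold call also needs a change of at least 2-fold. P-values measure the spread between these arrays.

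The tissue was checked against marker genes. The summed intensity of 8 neuron markers was 402 to 446 over the Control arrays, 248 to 276 over those of D3, 209 to 307 over those of D7 and 261 to 303 over those of Chronic. That of 12 microglia markers was 106 to 124 over the Control arrays, 323 to 397 over those of D3, 252 to 646 over those of D7 and 215 to 404 over those of Chronic. For both sums, no pilocarpine array overlapped with Control. Of the neuron markers, 6, 6 and 5 fell at D3, D7 and Chronic with no 2-fold call, and 8, 11 and 8 of the microglia markers were called higher at 2-fold. The probe of the neuron marker Snap25 was flagged G on 1 array and that of the microglia marker Trem2 on 0. The summed intensity of 10 choroid plexus markers ranged from 14.1 to 269.8 over the Control arrays, from 5.5 to 64.2 over those of D3, from 5.47 to 93.4 over those of D7 and from 8.28 to 276 over those of Chronic. D7 replicate 33 stood apart, with the lowest neuron and the highest microglia sum. In bulk tissue, fewer cells of a type and less RNA per cell cannot be told apart, and the part of these markers in the results on potassium channel genes was not tested.

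More potassium channel genes fell than rose at all 3 times. At D3, 5 of 72 genes rose (6.94%, with 11.8% among all named genes tested) and 23 fell (31.9%, with 16.5% among all). At D7, 4 rose (5.56%, with 8.04% among all) and 21 fell (29.2%, with 15.5% among all). In Chronic, 2 rose (2.78%, with 6.28% among all) and 15 fell (20.8%, with 12.7% among all). With all arrays, the share of genes that fell was above that of all named genes at each time. The share that rose was below theirs. In Chronic the excess of falls depended on single Control arrays. Without Control replicate 36, 1 of 72 genes fell in Chronic, a smaller share than the 1151 of 33453 probes. Without replicate 26, 2 of 72 fell, again a smaller share than the 1303 of 33431 probes. At D3 and D7 the share that fell stayed above that of all probes with either array left out. With quantile normalization, the D7 share that rose (4 of 72) was near that of all probes (1878 of 33800). Most changes were under 2-fold. The 2-fold rule called 2 genes higher and 3 lower at D3 (5.09% and 0.973% of all named genes), 2 higher and 2 lower at D7 (3.8% and 0.487%) and 1 higher and 2 lower in Chronic (2.87% and 0.673%). The 3 comparisons share the same Control arrays, and their number limits the precision.

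The median log2 difference of the 72 genes from Control was -0.40 at D3, with -0.33 at D7 and -0.28 in Chronic. For all 12331 named genes tested it was -0.10, -0.12 and -0.12. Among genes flagged G on all arrays, it was -0.42, -0.37 and -0.35 for 43 potassium channel genes and -0.12, -0.17 and -0.16 for 8478 named genes. At D3, 55 of the 72 genes lay below 0 (76.4%, with 59.3% of named genes), at D7 53 (73.6%, with 61.1%) and in Chronic 52 (72.2%, with 62.5%). Scaling the arrays at their 75th percentile moved the median of all probes by 0.06, 0.11 and 0.11 on the log2 scale. Relative to all probes, the potassium channel genes lay at -0.28, -0.26 and -0.20. That scaling moves all probes of an array by the same amount, so it could hardly change this distance. Quantile normalization can change it, and gave -0.30, -0.22 and -0.18. The split of the changed genes moved with the 75th percentile scaling. At D7 5 rose and 9 fell (35.7% of the changed genes rose, against 16%), and in Chronic 2 rose and 6 fell (25%, against 11.8%). With quantile normalization 4 rose and 7 fell at D7 (36.4%). The split moved for all probes too: of those that changed, 34.3% rose at D7 and 33.2% in Chronic, against 56.3% and 54.7% with the 75th percentile and 54.8% and 53.7% with quantile normalization.

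**Figure D1:**
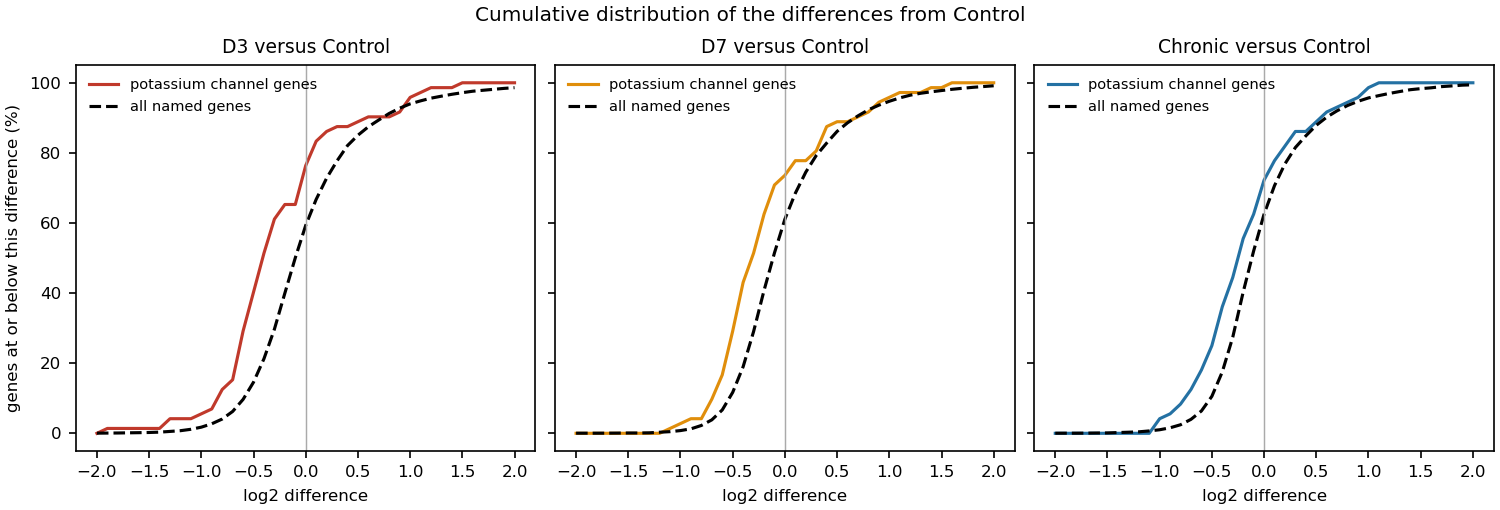
Cumulative percent of genes (vertical axis) at or below a log2 difference from Control (horizontal axis) at D3, D7 and Chronic, for the 72 potassium channel genes (solid) and all 12331 named genes tested (dashed). The medians of the potassium channel genes are -0.40, -0.33 and -0.28, against -0.10, -0.12 and -0.12.

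Genes that changed at all 3 times were mostly genes that fell. Kcnj8 and Kcnn4 rose at all 3 times, of 5 genes that rose at any time. Kcna2, Kcnc1, Kcnd3, Kcnh7, Kcnip1, Kcnip2, Kcnj10, Kcnj5, Kcnq5 and Kcns3 fell at all 3 times, of 30 that fell at any time. These are results of the brightest probes. Second probes of Kcna2 and Kcnj5 disagreed, as did a dim second probe of Kcnip2 at D7, as given below. Of all named genes, 4.71% rose and 7.79% fell at all 3 times, with 2.78% and 13.9% of the potassium channel genes, and 13.6% rose and 22.7% fell at any time, with 6.94% and 41.7%. A gene low or high on the shared Control arrays enters all 3 comparisons. On the level of single arrays, all pilocarpine arrays lay below all Control arrays for 17 genes (23.6%, with 12.5% of all named genes), and above them for Kcnj8 and Kcnn4 (2.78%, with 5.27% of all named genes).

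**Figure D2:**
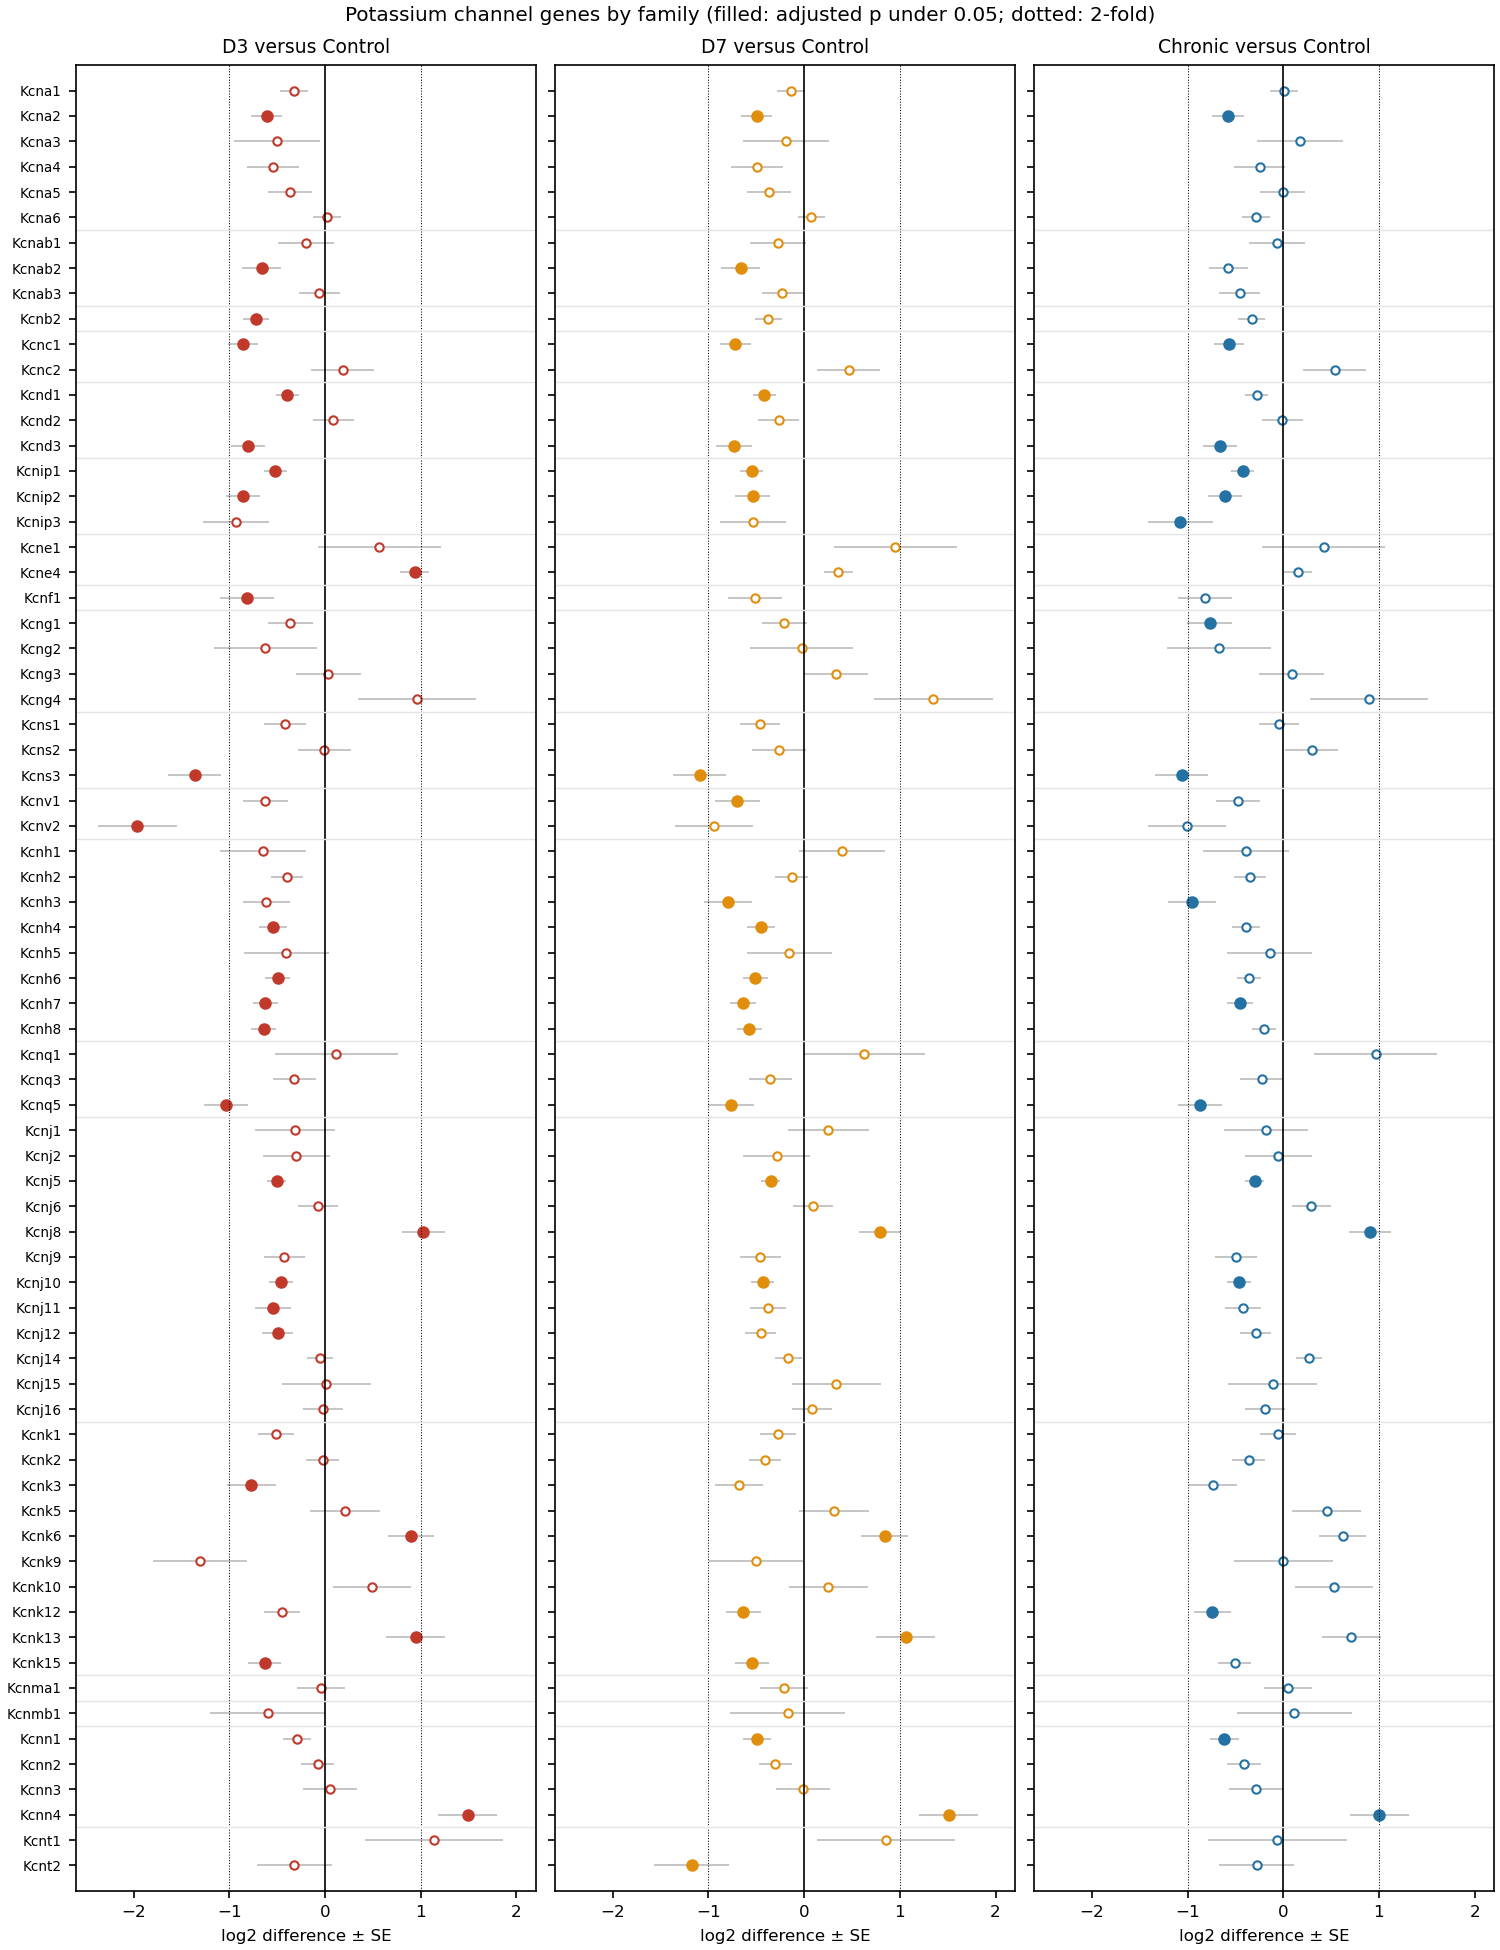
Log2 difference from Control at D3, D7 and Chronic (horizontal axes) for 71 of the 72 potassium channel genes (rows, by family), with standard errors as bars, filled points for an adjusted p under 0.05 and dotted lines at 2-fold. Most points lie left of 0, and the filled points farthest right are those of Kcnn4, at 1.49, 1.51 and 1.01.

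The largest rise was that of Kcnn4 (probe GE1264042), which encodes the intermediate-conductance calcium-activated channel of microglia and other immune cells. Its intensities were 4.87, 3.6, 3.61, 4.16 and 3.78 at D3, 4.19, 2.09, 8.48, 3.34 and 4.3 at D7, 3.25, 2.47, 2.62, 1.86 and 4.7 in Chronic and 1.43, 1.29 and 1.52 in Control. Every pilocarpine array was above every Control array, and D7 replicate 33, the array with the highest microglia sum, was the highest of all. The log2 difference was 1.49 ± 0.31 (adjusted p = 0.00214) at D3, 1.51 ± 0.31 (adjusted p = 0.00346) at D7 and 1.01 ± 0.31 (adjusted p = 0.0343) in Chronic, that is 2.82-, 2.85- and 2.01-fold. In Chronic the call ended without Chronic replicate 41 (0.96, adjusted p = 0.0714) or 45 (0.82, adjusted p = 0.0726) and without Control replicate 26 (1.01, adjusted p = 0.098), 36 (0.94, adjusted p = 0.122) or 47 (1.06, adjusted p = 0.0671). The second Kcnn4 probe was flagged L on all Control arrays, at 0.199, 0.107 and 0.134, and G on all 15 pilocarpine arrays, with means of 2.02, 2.68 and 1.81 at the 3 times. Its D7 values were 1.17, 0.901, 7.73, 0.931 and 2.67, of which that of replicate 33 lay far above the others, and their mean was 1.42 without it. Set against the lowest intensity flagged G on each Control array, it was at least 7.1-fold higher at D3, 6.42-fold at D7 and 5.98-fold in Chronic (adjusted p = 4.45e-05, 0.000144 and 0.000353), with at least 4.48-fold (adjusted p = 2.18e-05) at D7 without replicate 33.

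A pair of K2P channel genes rose as well. Kcnk13 (probe GE1139596), which encodes the THIK-1 channel that sets the resting potential of microglia, was at 1.57, 1.52, 1.36, 1.41 and 1.29 at D3, 1.48, 0.865, 2.02, 1.49 and 2.27 at D7, 1.86, 1.42, 1.21, 0.558 and 1.47 in Chronic and 0.841, 0.564 and 0.851 in Control. D3 and D7 lay above Control on every array, while Chronic replicate 44 lay below the lowest Control array. It rose by 0.95 ± 0.31 (adjusted p = 0.0328) at D3 and by 1.06 ± 0.31 (adjusted p = 0.0235) at D7, with 0.71 ± 0.31 (adjusted p = 0.128) in Chronic. The 2-fold call at D7 ended without D7 replicate 33 (0.96, adjusted p = 0.0565) or 35 (0.92, adjusted p = 0.0538) and without Control replicate 26 (1.15, adjusted p = 0.0523) or 36 (0.87, adjusted p = 0.127), and the D3 rise no longer passed the test without D3 replicate 11, 12 or 14, or Control replicate 26, 36 or 47 (adjusted p = 0.0512 to 0.165).

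Kcnk6, which encodes TWIK-2, was at 1.43, 1.56, 1.24, 1.39 and 1.28 at D3, 1.22, 0.934, 2.02, 1.17 and 1.5 at D7, 1.27, 0.959, 0.793, 1.16 and 1.67 in Chronic and 0.522, 0.867 and 0.888 in Control. It rose by 0.90 ± 0.24 (adjusted p = 0.0115) at D3 and 0.84 ± 0.24 (adjusted p = 0.0221) at D7, with 0.62 ± 0.24 (adjusted p = 0.0892) in Chronic, and did not pass the test at D3 without Control replicate 26 (adjusted p = 0.101) nor at D7 without D7 replicate 33, or Control replicate 26 (adjusted p = 0.0549 to 0.149). For Kcnn4, Kcnk13 and Kcnk6 the microglia sums given above moved in the same direction, and their part was not tested.

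**Figure D3:**
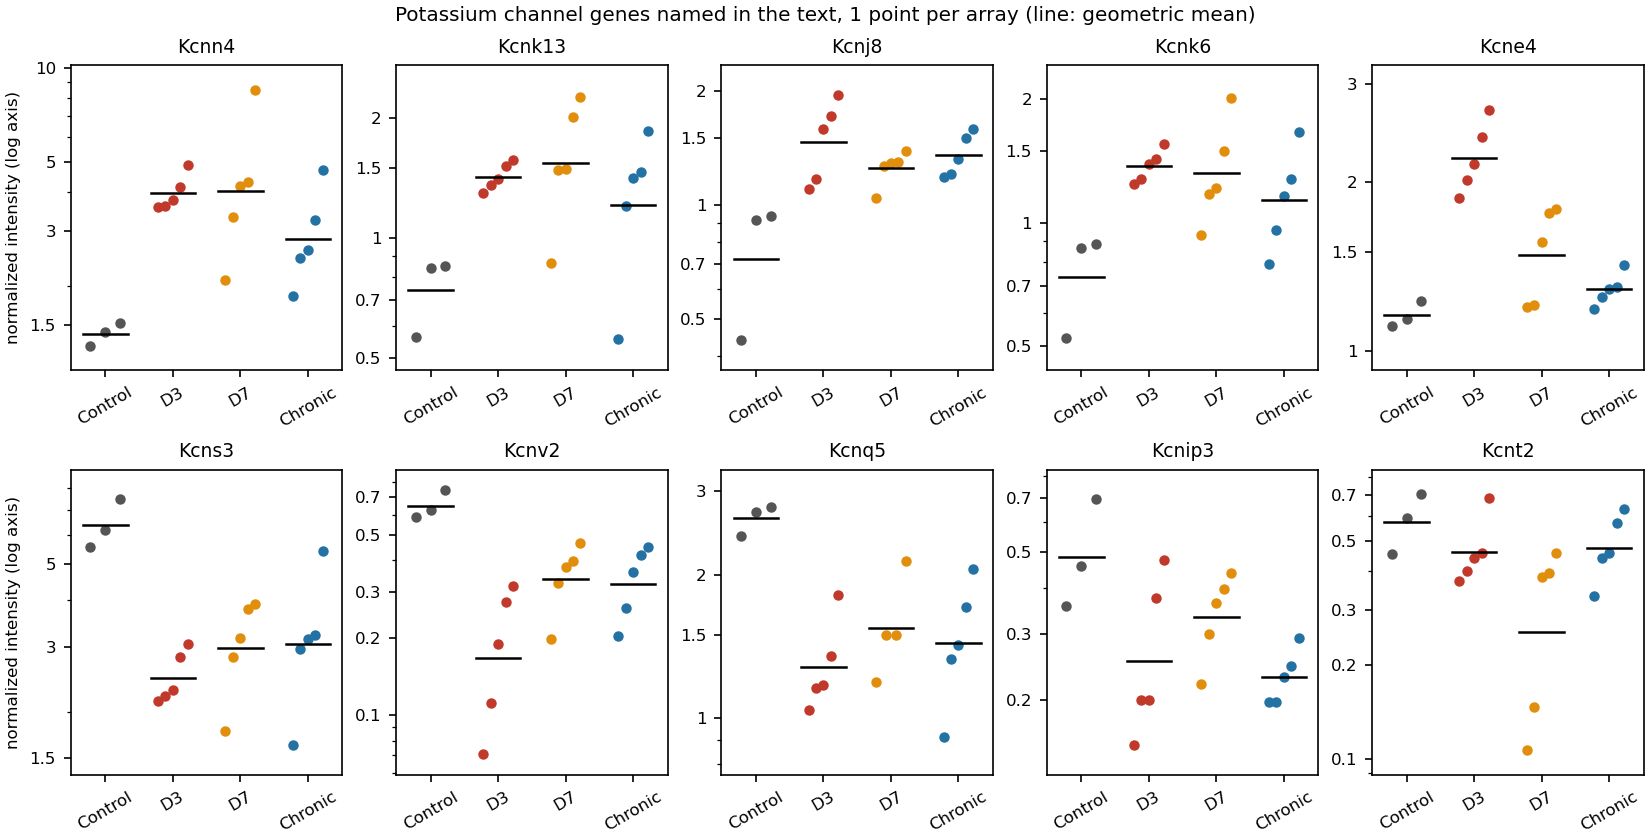
Normalized intensity (log axis) of 10 potassium channel genes on each array, with 1 point per array and a line at the geometric mean of each of the groups Control, D3, D7 and Chronic. All pilocarpine points lie above all Control points for Kcnn4 and Kcnj8 and below them for Kcns3, Kcnq5 and Kcnv2.

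Kcnj8 (probe GE1161480), which encodes Kir6.1, the pore of the ATP-sensitive potassium channel of pericytes and vascular muscle, rose at all 3 times. Its intensities were 1.1, 1.95, 1.18, 1.72 and 1.59 at D3, 1.27, 1.04, 1.3, 1.29 and 1.39 at D7, 1.33, 1.5, 1.19, 1.59 and 1.21 in Chronic and 0.935, 0.44 and 0.915 in Control. The pilocarpine arrays all lay above Control, and Control replicate 36 lay well below the other Control arrays. The differences were 1.03 ± 0.22 (adjusted p = 0.00295) at D3, 0.79 ± 0.22 (adjusted p = 0.0199) at D7 and 0.91 ± 0.22 (adjusted p = 0.012) in Chronic. The 2-fold call at D3 ended without Control replicate 36 (0.67, adjusted p = 0.0309) and without D3 replicate 12 (0.93, adjusted p = 0.00856), 14 (0.97, adjusted p = 0.00849) or 15 (0.999, adjusted p = 0.00801). Without Control replicate 36 the rise at the later times did not pass the test, the D7 difference being 0.44, adjusted p = 0.174, and the Chronic one 0.55, adjusted p = 0.102. On the second Kcnj8 probe Control replicate 36 was not low (0.668, 0.952 and 1.04 in Control), and the difference was 0.68 ± 0.18 (adjusted p = 0.0107) at D3, 0.33 ± 0.18 (adjusted p = 0.215) at D7 and 0.48 ± 0.18 (adjusted p = 0.076) in Chronic.

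Abcc9, the sulfonylurea receptor subunit that assembles with Kir6.1, was at 4.51 to 5.97 at D3, 3.1 to 4.5 at D7, 2.52 to 3.72 in Chronic and 2.53 to 4 in Control. It rose at D3 by 0.83 ± 0.17 (adjusted p = 0.00214), with 0.28 (adjusted p = 0.274) at D7 and 0.02 (adjusted p = 0.962) in Chronic. Of 7 endothelial markers, 1 rose and 1 fell at D3, and their summed intensity was 52.2 to 60.6 at D3, 43.4 to 56.3 at D7, 39.8 to 46.7 in Chronic and 41 to 56.1 in Control.

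Kcne4 encodes a single-span subunit that dampens Kv1 and Kcnq1 channels, and its level stood out at D3. Its intensities were 1.88, 2.16, 2.41, 2.02 and 2.7 at D3, 1.76, 1.56, 1.79, 1.2 and 1.21 at D7, 1.29, 1.19, 1.25, 1.3 and 1.42 in Chronic and 1.14, 1.11 and 1.23 in Control. All D3 arrays lay above all other arrays. It rose at D3 by 0.94 ± 0.15 (adjusted p = 0.000285), that is 1.91-fold, with 0.36 ± 0.15 (adjusted p = 0.105) at D7 and 0.15 ± 0.15 (adjusted p = 0.539) in Chronic. The times themselves differed: D7 stood at -0.58 ± 0.13 (adjusted p = 0.0354) against D3, and Chronic at -0.78 ± 0.13 (adjusted p = 0.00193) against D3. The difference between D7 and D3 did not pass the test without D3 replicate 12, 13, 14 or 15, or D7 replicate 32, 34 or 35 (adjusted p = 0.0631 to 0.109), while for Chronic against D3 the adjusted p with any 1 array left out was at most 0.00871.

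The bases upstream of the annotated start are shown for Kcnj8 and Kcne4, as genes that rose, and for Kcns3 and Kcnq5, as genes that fell, so that their composition can be read beside the changes. They are RefSeq sequences of build GRCr8, 250 bases each in the direction of transcription, at chr4:177246549-177246798 (minus strand) for Kcnj8, chr9:87695798-87696047 (plus strand) for Kcne4, chr6:39583395-39583644 and chr6:39584106-39584355 (minus strand) for 2 annotated starts of Kcns3, and chr9:31891282-31891531 (minus strand) for Kcnq5. Capitals mark the GC box GGGCGG on either strand, the binding motif of Sp1-type factors.
Kcnj8: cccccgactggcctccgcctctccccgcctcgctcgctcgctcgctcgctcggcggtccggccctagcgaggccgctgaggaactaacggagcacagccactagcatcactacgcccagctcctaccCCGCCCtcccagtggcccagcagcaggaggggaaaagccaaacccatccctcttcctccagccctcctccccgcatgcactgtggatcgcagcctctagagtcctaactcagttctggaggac
Kcne4: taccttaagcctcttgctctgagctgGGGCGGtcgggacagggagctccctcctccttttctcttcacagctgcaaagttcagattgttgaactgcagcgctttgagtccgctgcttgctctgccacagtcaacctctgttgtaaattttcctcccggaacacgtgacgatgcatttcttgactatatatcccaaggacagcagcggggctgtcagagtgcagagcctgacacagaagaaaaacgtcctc
Kcns3, one start: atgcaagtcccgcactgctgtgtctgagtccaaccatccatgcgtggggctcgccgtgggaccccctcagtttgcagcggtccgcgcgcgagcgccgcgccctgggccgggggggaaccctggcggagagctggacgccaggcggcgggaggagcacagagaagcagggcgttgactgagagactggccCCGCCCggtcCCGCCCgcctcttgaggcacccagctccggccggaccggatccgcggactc
Kcns3, other start: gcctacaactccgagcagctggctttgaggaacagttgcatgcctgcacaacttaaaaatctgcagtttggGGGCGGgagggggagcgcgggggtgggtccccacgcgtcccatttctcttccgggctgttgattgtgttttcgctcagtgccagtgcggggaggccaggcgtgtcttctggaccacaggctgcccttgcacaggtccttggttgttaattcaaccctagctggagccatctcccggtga
Kcnq5: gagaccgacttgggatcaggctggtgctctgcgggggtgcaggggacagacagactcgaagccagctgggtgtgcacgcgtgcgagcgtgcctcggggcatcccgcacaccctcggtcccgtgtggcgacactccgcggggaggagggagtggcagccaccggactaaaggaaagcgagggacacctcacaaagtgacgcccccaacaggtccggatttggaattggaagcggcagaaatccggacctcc
The GC content of these windows was 66.8% for Kcnj8, 52.4% for Kcne4, 72.4% and 59.2% for Kcns3, and 65.2% for Kcnq5. The motif stood once in the windows of Kcnj8, Kcne4 and the other start of Kcns3, 2 times in the first window of Kcns3, and not in that of Kcnq5. The 50 potassium channel genes with an entry had 56 windows, of which 29 held a GC box (51.8%), against 30.5% of all 33469 windows of the same length. The AP-1 motif TGANTCA stood in 2 of the 56 (3.57%, with 6.34% of all windows), the TATA box TATAAA in 1 (1.79%, with 12.9%) and the CRE TGACGTCA in 0 (with 1.59%), each searched on both strands. These counts describe letters in a window, and the data hold no measurement of binding there.

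Of the silent subunits of the Kv2 channels, Kcns3 and Kcnv2 were called lower at D3. Kcns3 (probe GE1117258), which encodes the Kv9.3 subunit, was at 2.2, 3.05, 2.14, 2.81 and 2.3 at D3, 3.17, 2.81, 1.78, 3.91 and 3.8 at D7, 1.63, 3.14, 2.96, 3.22 and 5.42 in Chronic and 5.57, 7.49 and 6.17 in Control. Every pilocarpine array lay below every Control array, with Chronic replicate 45 just below the lowest of them. The differences were -1.36 ± 0.28 (adjusted p = 0.00203) at D3, -1.09 ± 0.28 (adjusted p = 0.0124) at D7 and -1.06 ± 0.28 (adjusted p = 0.0166) in Chronic, that is 2.57-, 2.13- and 2.09-fold lower. Among the 72 genes it alone had a 2-fold call for a fall at all 3 times. The D7 call ended without D7 replicate 33 (-0.91, adjusted p = 0.0294) or Control replicate 36 (-0.97, adjusted p = 0.0672), and the Chronic call without Chronic replicate 41 (-0.83, adjusted p = 0.0355) or Control replicate 36 (-0.94, adjusted p = 0.0863).

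Kcnv2 (probe GE17125), which encodes the silent subunit Kv8.2, was at 0.0708, 0.188, 0.275, 0.111 and 0.317 at D3, 0.325, 0.395, 0.198, 0.377 and 0.465 at D7, 0.449, 0.26, 0.359, 0.419 and 0.204 in Chronic and 0.747, 0.588 and 0.624 in Control. Every pilocarpine array lay below Control, but the probe was flagged G on 1 of 5 arrays at D3, 4 of 5 at D7, 3 of 5 in Chronic and all 3 in Control, so its D3 values lie largely in the low range and leave the size of the D3 difference uncertain. The difference was -1.96 ± 0.41 (adjusted p = 0.0023) at D3, -0.94 ± 0.41 (adjusted p = 0.118) at D7 and -1.003 ± 0.41 (adjusted p = 0.106) in Chronic. The other Kcnv2 probe was flagged G on 1 array and gave 0.45 ± 0.76 (adjusted p = 0.732) at D3, and the mean over both probes gave -0.76, adjusted p = 0.311.

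Further silent subunits passed the test at 1 time each. Kcnv1 fell at D7 by 0.70 ± 0.23 (adjusted p = 0.0428), with -0.62 at D3 and -0.47 in Chronic, and did not pass without D3 replicate 15, or D7 replicate 31, 33 or 35, or Control replicate 26, 36 or 47 (adjusted p = 0.0503 to 0.129). Kcnf1 fell at D3 by 0.81 ± 0.28 (adjusted p = 0.0444). Its difference in Chronic was of the same size, at -0.81, with -0.51 at D7, but neither passed the test. The D3 fall did not pass without D3 replicate 12, 13, 14 or 15, or D7 replicate 35, or Chronic replicate 42, 43 or 44, or Control replicate 26 or 36 (adjusted p = 0.0503 to 0.276). Kcng1 fell in Chronic by 0.77 ± 0.24 (adjusted p = 0.0344), and did not pass without Chronic replicate 41, 42 or 44, or Control replicate 26 or 36 (adjusted p = 0.0562 to 0.218).

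Kcnb2, named after its values were seen, encodes a Kv2 pore subunit that silent subunits join and that carries delayed rectifier current. It fell at D3 by 0.72 ± 0.14 (adjusted p = 0.00131), and its second probe gave -0.21 (adjusted p = 0.493). Amigo1, an adhesion protein that accompanies Kv2 channels, was at 0.449 to 0.645 at D3 and 0.846 to 0.997 in Control and fell at D3 by 0.80 ± 0.20 (adjusted p = 0.00758).

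Kcnq5 (probe GE1274785), a subunit of the channels that carry the M-current, which restrains repetitive firing, fell at all 3 times. It was at 1.17, 1.16, 1.04, 1.82 and 1.35 at D3, 1.19, 2.14, 1.5 and 1.49 on the 4 measured D7 arrays, 0.913, 1.43, 2.06, 1.71 and 1.33 in Chronic and 2.78, 2.72 and 2.41 in Control. The spot of D7 replicate 34 carried another flag and was left out of the fit. Control and pilocarpine arrays did not overlap. The differences were -1.04 ± 0.23 (adjusted p = 0.00356) at D3, -0.77 ± 0.24 (adjusted p = 0.0333) at D7 and -0.87 ± 0.23 (adjusted p = 0.017) in Chronic. The 2-fold call at D3 was lost without D3 replicate 13 (-0.96, adjusted p = 0.00894) or Control replicate 26 (-0.998, adjusted p = 0.0215). The test was no longer passed at D7 without D7 replicate 31, 33 or 35, or Control replicate 26, 36 or 47 (adjusted p = 0.0566 to 0.105), and in Chronic without Control replicate 26 or 36 (adjusted p = 0.0682 to 0.0713). Kcnq3, its partner in M-channels, was at 2.09 to 3.21 at D3 and 2.4 to 4.08 in Control, with -0.32 ± 0.22 (adjusted p = 0.34) at D3, -0.35 ± 0.22 (adjusted p = 0.296) at D7 and -0.23 ± 0.22 (adjusted p = 0.553) in Chronic.

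The A-type channels of dendrites are built from Kv4 pores, cytoplasmic KChIP proteins and membrane-spanning DPP proteins. Kcnd3, a Kv4 pore subunit, was at 14.8 to 19.7 at D3, 11.8 to 26 on 4 D7 arrays, 15.4 to 22.9 in Chronic and 27.5 to 32.4 in Control, with no overlap. It fell by 0.81 ± 0.18 (adjusted p = 0.00352) at D3, 0.74 ± 0.19 (adjusted p = 0.0124) at D7 and 0.66 ± 0.18 (adjusted p = 0.0197) in Chronic. A further pair of its probes flagged G on all arrays gave -0.74 and -0.69 at D3 (adjusted p = 0.0122 and 0.00479). The test was no longer passed at D7 without Control replicate 26 (adjusted p = 0.0587), and in Chronic without Control replicate 26, 36 or 47 (adjusted p = 0.0508 to 0.0925). Kcnd2, another Kv4 subunit, was at 6.82 to 11.3 at D3, 4.53 to 10.4 at D7, 7.15 to 10.3 in Chronic and 7.68 to 10.2 in Control, with differences of 0.09 ± 0.22, -0.27 ± 0.22 and -0.01 ± 0.22.

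All 3 KChIP genes measured fell at 1 time or more, with 22.7% of all named genes. At D3, D7 and Chronic 66.7%, 66.7% and 100% of them fell, with 16.5%, 15.5% and 12.7% of all named genes. Kcnip2 (KChIP2) was at 1.09 to 1.43 at D3, 1.18 to 2.1 at D7, 1.21 to 1.79 in Chronic and 2.02 to 2.46 in Control, and fell by 0.86 ± 0.18 (adjusted p = 0.00235) at D3, 0.54 ± 0.18 (adjusted p = 0.0433) at D7 and 0.61 ± 0.18 (adjusted p = 0.0286) in Chronic. It did not pass at D7 without D3 replicate 14 or 15, or D7 replicate 31, 33 or 35, or Chronic replicate 42, or Control replicate 26, 36 or 47 (adjusted p = 0.05 to 0.158) nor in Chronic without Chronic replicate 41, 42 or 45, or Control replicate 26, 36 or 47 (adjusted p = 0.0521 to 0.113). The second Kcnip2 probe was dim, at 0.0624 to 0.327 at D7 and 0.052 to 0.116 in Control. The mean over the Kcnip2 probes turned the D7 difference positive, as given in the closing section. Kcnip1 (KChIP1) was at 4.8 to 5.03 in Control and at most 4.36 on any pilocarpine array. It fell by 0.52 ± 0.12 (adjusted p = 0.00413) at D3, 0.55 ± 0.12 (adjusted p = 0.00498) at D7 and 0.43 ± 0.12 (adjusted p = 0.0224) in Chronic, where it did not pass without Control replicate 26 or 36 (adjusted p = 0.0815 to 0.0826). Its second probe fell by 0.58, 0.71 and 0.68.

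Kcnip3 (probe GE13565) encodes KChIP3, also known as the transcriptional repressor DREAM. It was at 0.2, 0.475, 0.151, 0.375 and 0.2 at D3, 0.439, 0.364, 0.221, 0.398 and 0.301 at D7, 0.247, 0.197, 0.197, 0.231 and 0.293 in Chronic and 0.459, 0.694 and 0.358 in Control. It fell in Chronic by 1.07 ± 0.34 (adjusted p = 0.0399), with -0.93 (adjusted p = 0.0569) at D3 and -0.53 (adjusted p = 0.298) at D7. The probe was flagged G on 1 of 5 arrays in Chronic and 3 of 3 in Control, and the call ended without Chronic replicate 41, 42, 43 or 44, or Control replicate 26 or 36 (adjusted p = 0.0562 to 0.209). Dpp10, a Kv4 partner, was called lower at D3 by 1.09 ± 0.26 (adjusted p = 0.00565), with 0.472 to 1.02 at D3 and 1.37 to 1.5 in Control.

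Among the Kv1 genes, which hold axonal and low-threshold channels, 1 of 6 fell at each time (16.7%, with 16.5%, 15.5% and 12.7% of all named genes). It was Kcna2, at 16.1 to 19.8 at D3, 15.4 to 23.6 at D7, 12.9 to 22.6 in Chronic and 25.8 to 28.6 in Control, with -0.61 ± 0.16 (adjusted p = 0.0117) at D3, -0.50 ± 0.16 (adjusted p = 0.0421) at D7 and -0.58 ± 0.16 (adjusted p = 0.0247) in Chronic. A second Kcna2 probe, also flagged G on all arrays, gave -0.13 (adjusted p = 0.468), -0.06 (adjusted p = 0.787) and 0.16 (adjusted p = 0.388), so that the probes of this gene disagreed. The fall of the brightest probe did not pass at D3 without Control replicate 36 (adjusted p = 0.0528), at D7 without D3 replicate 11, 12 or 15, or D7 replicate 31, 33 or 35, or Control replicate 26, 36 or 47 (adjusted p = 0.0503 to 0.137) nor in Chronic without Control replicate 26, 36 or 47 (adjusted p = 0.0623 to 0.0952). Kcna1 was at 16 to 19.99 at D3 and 19.6 to 25.2 in Control, with -0.32 ± 0.15 (adjusted p = 0.126), and Kcna4 at 0.474 to 0.776 and 0.799 to 0.964, with -0.54 ± 0.27 (adjusted p = 0.158). Kcna3, a channel known from microglia and lymphocytes, was flagged L on 16 of 18 arrays and gave -0.50 (adjusted p = 0.471) at D3, -0.19 (adjusted p = 0.817) at D7 and 0.17 (adjusted p = 0.848) in Chronic.

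Of the cytoplasmic β subunits, Kcnab2 fell by 0.66 ± 0.20 (adjusted p = 0.0238) at D3 and 0.66 ± 0.20 (adjusted p = 0.0296) at D7, with -0.57 (adjusted p = 0.0627) in Chronic. The test was missed at D3 without D3 replicate 14 or 15, or Control replicate 26 or 36 (adjusted p = 0.0515 to 0.105) and at D7 without D7 replicate 31 or 33, or Control replicate 26 or 36 (adjusted p = 0.0504 to 0.124). The brightest probe of Kcnab1 gave -0.20 (adjusted p = 0.682) at D3, and its other probes -0.55 (adjusted p = 0.0906) and -0.58 (adjusted p = 0.0456).

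Kcnc1, which encodes the Kv3.1 channel of fast-spiking cells, was at 15.1, 12.4, 15.8, 14.3 and 17.2 at D3, 15.1, 20.5, 12.3, 17.6 and 17.5 at D7, 17.8, 21.9, 19.3, 18.5 and 14 in Chronic and 23.6, 31.6 and 26.1 in Control, with no overlap. It fell by 0.85 ± 0.16 (adjusted p = 0.000936) at D3, 0.72 ± 0.16 (adjusted p = 0.00538) at D7 and 0.57 ± 0.16 (adjusted p = 0.021) in Chronic, where it did not pass without Control replicate 36 (adjusted p = 0.127). Beside it, 5 of 10 interneuron markers fell at D3 and 4 at both later times, and 1 of them, Npy, rose at D3. Pvalb, the calcium-binding protein of fast-spiking interneurons, was at 1.79 to 2.35 at D3 and 4.12 to 6.48 in Control. The part of these markers in the fall of Kcnc1 was not tested.

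The Kcnh family of ether-à-go-go channels holds the EAG, ERG and ELK genes. Of its 8 genes, 8, 7 and 8 lay below 0 at D3, D7 and Chronic, and 4, 5 and 2 of them fell, with family medians of -0.58, -0.48 and -0.37 and no 2-fold call. The shares below 0 were 100%, 87.5% and 100%, with 59.3%, 61.1% and 62.5% of all named genes, and the shares that fell were 50%, 62.5% and 25%, with 16.5%, 15.5% and 12.7%. Kcnh3, an ELK channel of forebrain neurons, was at 13, 13, 16.2, 15.4 and 14 at D3, 12.9, 13.7, 6.05, 18.4 and 16 at D7, 7.82, 11.8, 12.3, 12.2 and 13.1 in Chronic and 24.4, 22.6 and 18.9 in Control, with no overlap. It lay at -0.61 ± 0.25 (adjusted p = 0.0816) at D3, and fell by 0.80 ± 0.25 (adjusted p = 0.0315) at D7 and 0.95 ± 0.25 (adjusted p = 0.0153) in Chronic. It did not pass at D7 without Control replicate 26 or 36 (adjusted p = 0.102 to 0.12) nor in Chronic without Control replicate 26 or 36 (adjusted p = 0.0634 to 0.0745). Kcnh7, an ERG channel named after its values were seen, was at 1.75 to 1.92 in Control and at most 1.51 on any pilocarpine array, and fell by 0.62 ± 0.13 (adjusted p = 0.00261) at D3, 0.64 ± 0.13 (adjusted p = 0.0039) at D7 and 0.45 ± 0.13 (adjusted p = 0.0281) in Chronic, where it did not pass without Chronic replicate 41 or Control replicate 26, 36 or 47 (adjusted p = 0.0527 to 0.11). Kcnh2, an ERG channel too, gave -0.40 (adjusted p = 0.0955) at D3, -0.13 (adjusted p = 0.638) at D7 and -0.35 (adjusted p = 0.176) in Chronic.

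Among the 12 inward rectifier genes, 1 rose and 4 fell at D3, 1 rose and 2 fell at D7, and 1 rose and 2 fell in Chronic. That 33.3%, 16.7% and 16.7% fell compares with 16.5%, 15.5% and 12.7% of all named genes, and that 8.33% rose at each time with 11.8%, 8.04% and 6.28%, so that the shares at D7 lay near those of all genes. Kcnj10, which encodes Kir4.1, the astrocytic channel for potassium uptake, was at 2.84, 2.71, 2.81, 2.71 and 2.26 at D3, 2.8, 3.23, 2.45, 2.77 and 2.37 at D7, 2.18, 2.65, 3.03, 2.73 and 2.76 in Chronic and 3.85, 3.44 and 3.7 in Control. Control lay above all pilocarpine arrays. It fell by 0.46 ± 0.12 (adjusted p = 0.0105) at D3, 0.43 ± 0.12 (adjusted p = 0.0196) at D7 and 0.46 ± 0.12 (adjusted p = 0.0166) in Chronic. It did not pass at D3 without Control replicate 26 (adjusted p = 0.0549), at D7 without Control replicate 26 or 47 (adjusted p = 0.0568 to 0.0845) nor in Chronic without Control replicate 26 or 47 (adjusted p = 0.0506 to 0.079). Of 12 astrocyte markers, 5 rose and 2 fell at D3, 3 rose and 0 fell at D7, and 2 rose and 1 fell in Chronic. Among all named genes, 11.8%, 8.04% and 6.28% rose and 16.5%, 15.5% and 12.7% fell. The median log2 difference of these markers was 0.27, 0.14 and 0.008 at the 3 times. Aqp4, the water channel of astrocyte endfeet, was among those that rose, by 0.45 ± 0.13 (adjusted p = 0.0187) at D3 and 0.54 ± 0.13 (adjusted p = 0.00878) at D7. The part of these markers in the fall of Kcnj10 was not tested.

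Kcnj16, which encodes the Kir5.1 partner of Kir4.1, was at 0.588 to 1.09 at D3 and 0.718 to 0.822 in Control, with differences of -0.02 ± 0.21, 0.08 ± 0.21 and -0.19 ± 0.21 at the 3 times. Of the G protein-gated Kir3 genes, Kcnj5, named after its values were seen, fell by 0.50 ± 0.10 (adjusted p = 0.00164) at D3, 0.35 ± 0.10 (adjusted p = 0.0216) at D7 and 0.30 ± 0.10 (adjusted p = 0.0499) in Chronic. It did not pass at D7 without Control replicate 26 or 36 (adjusted p = 0.0715 to 0.0784), and in Chronic it did not pass in 15 of 18 fits that left out 1 array (adjusted p = 0.0557 to 0.147), being kept without D7 replicate 33 or 34 or Chronic replicate 45. Its second probe gave 0.05, 0.14 and 0.30, so that the probes of this gene disagreed. On that probe all Chronic arrays (2.08 to 2.67) lay above all Control arrays (1.69 to 2.05). Kcnj6 gave -0.07 (adjusted p = 0.852) and Kcnj9 -0.42 (adjusted p = 0.175) at D3, and Kcnj2 was flagged L on 12 of 18 arrays.

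The 10 K2P genes went both ways, with 2 rising (Kcnk13 and Kcnk6) and 2 falling at both D3 and D7, that is 20% in each direction, with 11.8% rising and 16.5% falling at D3 and 8.04% and 15.5% at D7 among all named genes. Kcnk3, which encodes the acid-sensitive leak channel TASK-1, was at 1.22 to 2 at D3 and 2.53 to 2.97 in Control and fell at D3 by 0.77 ± 0.25 (adjusted p = 0.0339), with -0.68 (adjusted p = 0.0653) at D7 and -0.73 (adjusted p = 0.0554) in Chronic. It did not pass without D3 replicate 13, 14 or 15, or Control replicate 26, 36 or 47 (adjusted p = 0.0508 to 0.108). Kcnk12, which encodes THIK-2, was at 1.85, 2.06, 2.1 and 1.99 on 4 Chronic arrays and 3.18, 3.61 and 3.24 in Control. It fell by 0.63 ± 0.19 (adjusted p = 0.0255) at D7 and 0.74 ± 0.20 (adjusted p = 0.0175) in Chronic, but did not pass at D7 without Control replicate 26, 36 or 47 (adjusted p = 0.0571 to 0.105) nor in Chronic without Control replicate 26 or 36 (adjusted p = 0.0507 to 0.078). Kcnk2, the mechanosensitive TREK-1 gene, was at 5.67 to 7.95 at D3 and 6.41 to 6.97 in Control, with -0.03 ± 0.17. Kcnk1, the TWIK-1 gene, gave opposite signs on its probes, both flagged G on all arrays: the brightest lay at -0.51 ± 0.19 (adjusted p = 0.0568) at D3, and the other rose by 0.75 ± 0.20 (adjusted p = 0.0125).

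Of the calcium-activated genes other than Kcnn4, Kcnn1, a small-conductance (SK) channel gene, fell by 0.50 ± 0.15 (adjusted p = 0.0249) at D7 and 0.62 ± 0.15 (adjusted p = 0.0125) in Chronic, with -0.29 (adjusted p = 0.169) at D3. It did not pass at D7 without D7 replicate 33, or Control replicate 26 or 36 (adjusted p = 0.0588 to 0.119) nor in Chronic without Control replicate 26 or 36 (adjusted p = 0.0518 to 0.0683). Kcnn2 and Kcnn3, the other SK genes, did not pass the test at any time, with 2.92 to 4.22 at D3 and 3.34 to 3.68 in Control for Kcnn2 and 1.84 to 2.77 and 1.8 to 2.85 for Kcnn3. Kcnma1, the large-conductance (BK) channel gene, was at 4.78 to 7.61 at D3, 3.78 to 8.56 at D7, 4.48 to 10.1 in Chronic and 5.2 to 7.01 in Control, with differences of -0.05 ± 0.25, -0.21 ± 0.25 and 0.05 ± 0.25. Its next brightest probe was at 1.22 to 1.36 at D3 and 1.34 to 1.78 in Control.

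The sodium-activated genes varied widely between arrays. Kcnt2 (probe GE1256651), which encodes Slick, was at 0.457, 0.373, 0.686, 0.441 and 0.401 at D3, 0.107, 0.384, 0.394, 0.146 and 0.458 at D7, 0.332, 0.459, 0.572, 0.634 and 0.44 in Chronic and 0.454, 0.707 and 0.595 in Control. D7 replicates 31 and 34 were low, and D7 replicate 35 lay above the lowest Control array. It was called lower at D7 by 1.17 ± 0.39 (adjusted p = 0.0429), with -0.32 at D3 and -0.28 in Chronic. The call ended without D3 replicate 11, 14 or 15, or D7 replicate 31 or 34, or Chronic replicate 42, or Control replicate 26, 36 or 47 (adjusted p = 0.0507 to 0.163), and the difference was -0.86, adjusted p = 0.0882 without D7 replicate 31 and -0.97, adjusted p = 0.083 without 34. Kcnt1, which encodes Slack, was at 6.59, 10.5, 10.5, 8.96 and 6.9 at D3, 12.5, 9.76, 1.14, 11.4 and 10.6 at D7, 4.27, 3.93, 10.8, 0.823 and 4.73 in Chronic and 2.29, 2.54 and 9.99 in Control, where replicate 47 lay far above the others. Its difference of 1.14 ± 0.72 (adjusted p = 0.288) at D3 did not pass the test.

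Between the pilocarpine groups few potassium channel genes differed. No gene reached a 2-fold call between any of the 3 times by limma, with 6, 14 and 7 genes at an unadjusted p under 0.05 for D7 against D3, Chronic against D3 and Chronic against D7. The share of all named genes at that unadjusted threshold was not counted, so these counts show nothing particular to potassium channel genes. Of all named genes, the 2-fold calls between times were 0.073% higher and 0.454% lower for D7 against D3, 0.122% and 0.997% for Chronic against D3, and 0.0243% and 0.0162% for Chronic against D7. At any fold, Kcne4 was lower at D7 than at D3 (1 lower and 0 higher of 72, with 1.22% and 0.219% of named genes). Kcne4 was lower and Kcnh8 higher in Chronic than at D3 (1 each, with 3.15% lower and 0.706% higher among named genes), and 0 genes differed between Chronic and D7 (with 0.0811% and 0.138%). Kcnh8, an ELK channel gene named for this difference after its values were seen, was at 1.13 to 1.57 on 4 D3 arrays, 1.31 to 1.49 on 4 D7 arrays, 1.68 to 2 in Chronic and 1.82 to 2.37 in Control, with 0.44 ± 0.12 (adjusted p = 0.0475) for Chronic against D3. It passed the test in 3 of 18 fits that left out 1 array (without D3 replicate 12, D7 replicate 33 or Control replicate 26), and in the other 15 the adjusted p was 0.0506 to 0.14.

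**Figure D4:**
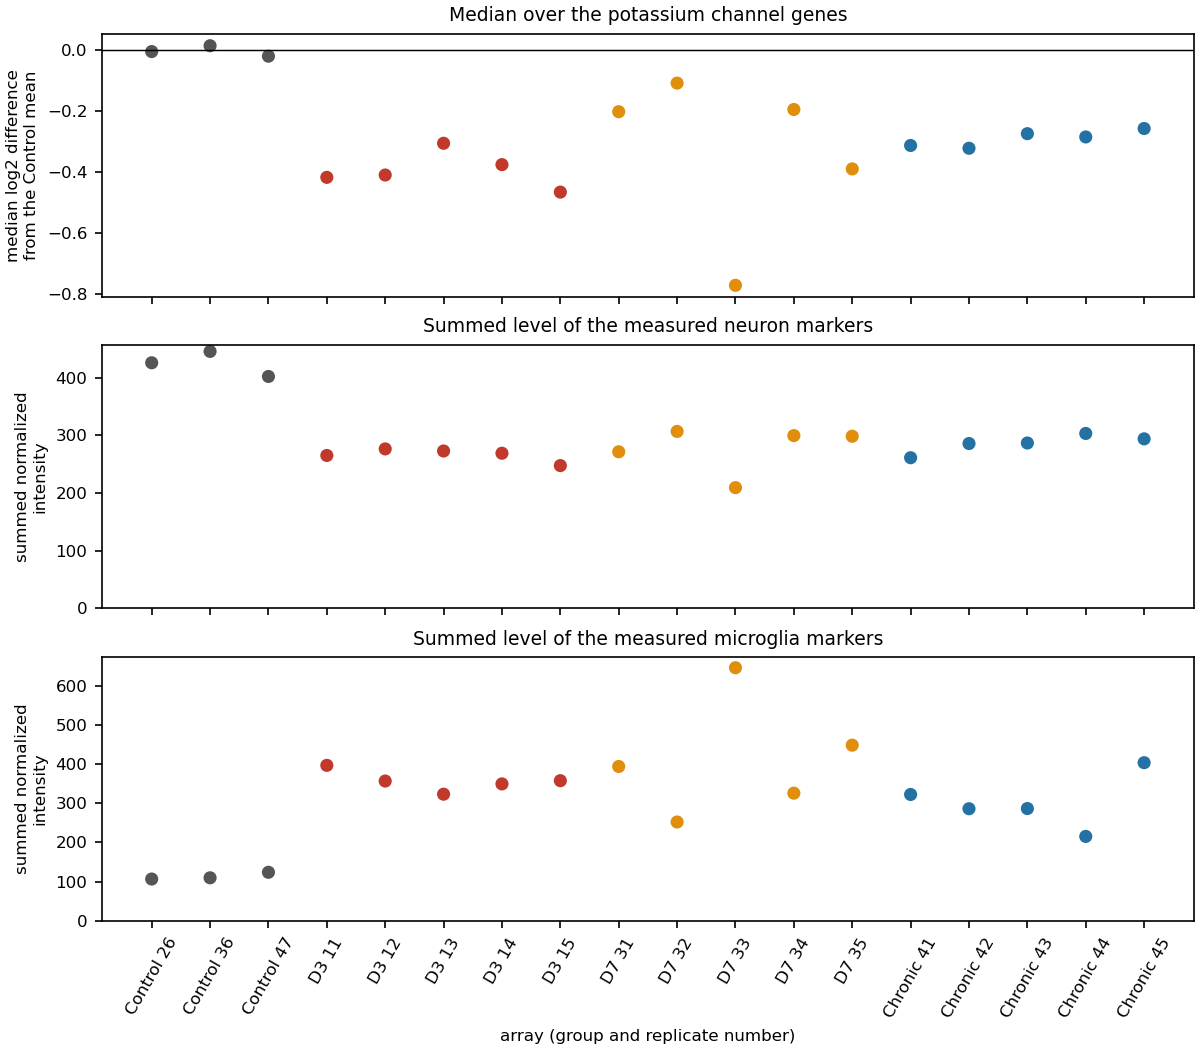
Per array (horizontal axis, group and replicate number), the median over the 72 potassium channel genes of the log2 difference from the Control mean (top), and the summed normalized intensity of the measured neuron (middle) and microglia markers (bottom). Every pilocarpine array lies below the Control arrays in the top and middle panels and above them in the bottom one, with D7 replicate 33 farthest in all 3.

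Array by array, the median of the 72 genes relative to the Control mean was -0.47 to -0.31 at D3, -0.77 to -0.11 at D7, -0.32 to -0.26 in Chronic, and -0.02 to 0.01 over the Control arrays. All 15 pilocarpine arrays were below all 3 Control arrays, D7 replicate 32 by the least (-0.11). D7 replicate 33 was the lowest, and the D7 median was -0.21 without it. The number of genes that changed at D7 (25) was 15 without that array, 8 without Control replicate 26 and 9 without 36. At D3 (28) it was 16 without Control replicate 26 and 18 without 36. In Chronic (17) it was 1 without Control replicate 36, 3 without 26 and 11 without Chronic replicate 41. Over all probes in Chronic, 868 rose and 1151 fell of 33453 without Control replicate 36, and 804 and 1303 of 33431 without 26. Without Chronic replicate 41, 1245 rose and 2147 fell of 33794. At D7, 1194 and 1762 of 33431 rose and fell without Control replicate 26, and 1237 and 1521 of 33453 without 36. Without D7 replicate 33, 1457 and 2601 of 33789 did. At D3, 1878 and 2792 did without Control replicate 26, and 1989 and 2749 without 36. The 2-fold calls numbered 8 at D3 and 5 in Chronic without Control replicate 47, 0 in Chronic without Control replicate 36 or Chronic replicate 41, 1 at D7 without Control replicate 36, and 2 at D7 without D7 replicate 33 or Control replicate 26. With the control array of the same time alone, an arm of 1 array that is assumed to vary like the pilocarpine groups, which supply the spread, 2, 2 and 0 genes passed the test at D3, D7 and Chronic, and the medians were -0.46, -0.36 and -0.36. The smaller arm by itself lowers the number that can pass for all probes alike, and its part in these counts was not tested.

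**Figure D5:**
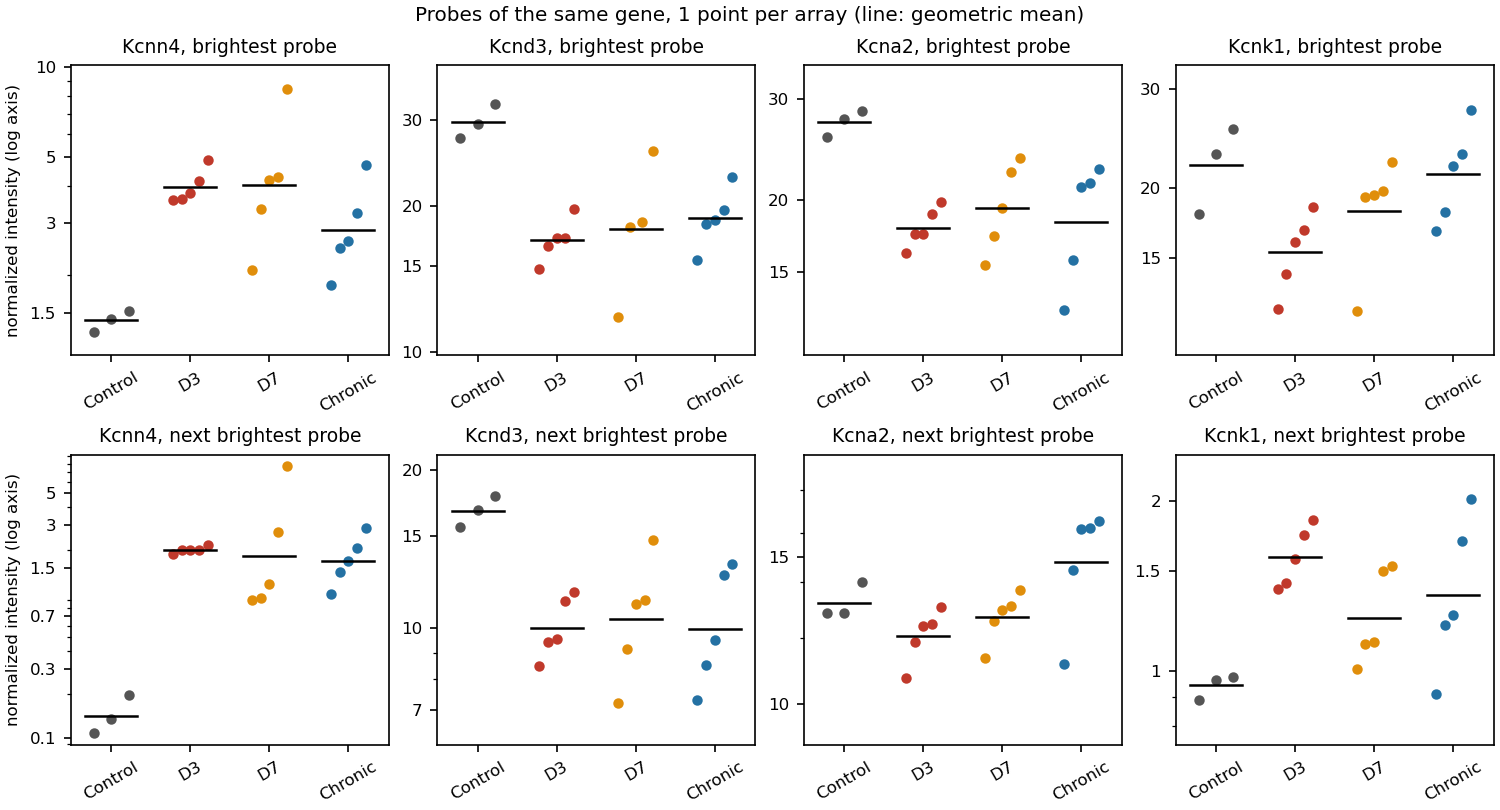
Normalized intensity (log axis) of Kcnn4, Kcnd3, Kcna2 and Kcnk1 on each array, for the brightest probe (top) and the next brightest probe (bottom), with 1 point per array and a line at the geometric mean of each group. The probes of Kcnn4 and Kcnd3 moved the same way, while for Kcnk1 at D3 they gave -0.51 and 0.75.

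Genes of channel partners and of potassium transport were read from separate lists. Of 15 measured partners (of 22 listed), 2, 1 and 1 rose and 5, 2 and 3 fell at D3, D7 and Chronic, with medians of -0.35, -0.31 and -0.24. Among all named genes, 11.8%, 8.04% and 6.28% rose and 16.5%, 15.5% and 12.7% fell. The share of partners that rose lay near that of all named genes each time, as did the share that fell at D7. Only at D3 and in Chronic did a larger share of the partners fall, and these are few genes. Lrrc55, an auxiliary γ subunit of BK channels, was at 1.05 to 1.66 at D3, 0.544 to 1.03 at D7, 1 to 1.48 in Chronic and 0.309 to 0.628 in Control. It rose by 1.52 ± 0.24 (adjusted p = 0.000222) at D3, 0.75 ± 0.24 (adjusted p = 0.0334) at D7 and 1.28 ± 0.24 (adjusted p = 0.00237) in Chronic. The brightest probe of the BK pore gene Kcnma1 gave -0.05 at D3. Dlg1, a scaffold protein that binds Kv1 and Kir channels, fell by 0.43 ± 0.09 (adjusted p = 0.00297) at D3, 0.42 ± 0.09 (adjusted p = 0.0063) at D7 and 0.29 ± 0.09 (adjusted p = 0.0443) in Chronic.

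Of 14 measured genes of potassium uptake and transport (of 16 listed), 4, 3 and 3 rose and 6, 5 and 3 fell at D3, D7 and Chronic, with medians of 0.15, 0.23 and 0.10. Both shares lay above those of all named genes each time (11.8%, 8.04% and 6.28% rising, 16.5%, 15.5% and 12.7% falling), in a list of few genes. Fxyd2, a regulatory subunit of the sodium pump, was at 1.63 to 3.66 at D3 and 0.382 to 0.582 in Control and was called higher by 2.298 ± 0.25 (adjusted p = 9.29e-06) at D3 and 1.11 ± 0.25 (adjusted p = 0.00624) at D7. Fxyd6, another FXYD regulator, was at 30.5 to 37.2 in Control and at most 20.7 on any pilocarpine array, and was called lower by 1.09, 1.13 and 1.302 at the 3 times. Slc12a5, the neuronal potassium-chloride cotransporter KCC2, fell by 0.83 ± 0.16 (adjusted p = 0.0015) at D3 and 0.74 ± 0.16 (adjusted p = 0.0056) at D7, with -0.48 (adjusted p = 0.0537) in Chronic.

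Further cell type markers were read on the same arrays. Of 7 excitatory neuron markers, 5, 3 and 3 fell at D3, D7 and Chronic, and their sum was 174 to 193 over the Control arrays. It was 90.8 to 131 over the D3 arrays, 82.7 to 154 over the D7 arrays and 109.6 to 181 over the Chronic arrays, which overlapped Control. Of 12 oligodendrocyte markers, 1 rose and 1 fell at each time. Of 7 T cell markers, 2 were called higher at each time. The part of these markers in the changes of potassium channel genes was not tested.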

How the data were processed

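Hippocampal RNA of 18 rats was measured on 1-colour CodeLink Rat Whole Genome arrays. The authors scanned the arrays with a GenePix scanner and used the CodeLink Expression Analysis software. The deposited normalized intensity of each spot, used here, is the background-subtracted spot intensity divided by 1 constant per array, on a linear scale with a median near 1. Subtraction lowers the precision of dim spots, which carry flag L. The deposited value table served only to tie probes to the platform annotation: 33970 of its 33993 lines matched 1 probe on all arrays by value, and the other 23 are empty. Symbols came from that annotation for 16740 probes and from RefSeq accessions for 205 (4 of the 105 potassium channel probes), and can be old.

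Spots with other flags than G or L (0.699%) were set to missing. Intensities were floored at percentile 1 of an array's positive intensities, and log2 was taken here. Probes with at least 3 values per pilocarpine group and 2 in Control were fitted with limma 3.58.1 (R 4.3.3) as 1 model of 4 groups with an intensity-dependent prior and no covariate, and p-values were adjusted over 33800 probes by Benjamini and Hochberg. The fit was tested on simulated data. A lower bound of a fold, where all spots of the lower group were flagged L, used the lowest intensity flagged G on each array.

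The potassium channel genes and all lists were chosen with earlier results of these data known. Genes named are those with a 2-fold call, up to 8 rises and 8 falls per comparison with Control, and a set of 36 by function, of which 32 were measured; Kcnip4, Kcnj3 and Kcnmb4 are among those not analysed here, and some measured genes are counted but not reported singly here. Genes flagged G on no array and members that make up a count are named too. From the other lists, genes with a 2-fold call and 5 others are named, with Snap25 and Trem2 for their flags. Alternatives were another normalization, scaling, floor, flag or probe rule, prior, weighting or test, the time-matched control array alone, and each array left out in turn. The study's methods describe a control group for each time; here 1 control array per time was analysed, and the 3 form 1 group. The number of arrays limits the precision.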

Additional observations from a re-analysis of the deposited data

Results flagged for a closer look

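In 126 groups, 122 of 5 arrays and 4 of 4, 9 had an array that stood apart by Dixon's ratio, its gap to the nearest array over the range of the group. Chance gives about 1 in 20 such groups. D7 replicate 33 was the lowest array of D7 for Kcnt1 (1.14, with 9.76 to 12.5 on the others, ratio 0.898), Kcna4 (0.283, with 0.703 to 0.8, ratio 0.875), Kcnk1 (12.1, with 19.3 to 22.3, ratio 0.764) and Kcnj9 (0.575, with 0.922 to 1.11, ratio 0.719). The same array had the lowest neuron and the highest microglia marker sum, and the part of these markers was not tested. Chronic replicate 41 was lowest for Kcnh3 (7.82, with 11.8 to 13.1, ratio 0.803) and highest for Kcnip1 (4.36, with 3.45 to 3.63, ratio 0.785). Chronic replicate 44 was highest for Kcna1 (27.2, with 20.2 to 21.1, ratio 0.851), and Chronic replicate 45 for Kcnab1 (10.7, with 5.70 to 6.47, ratio 0.797). D3 replicate 15 was lowest for Kcnj10 (2.26, with 2.71 to 2.84, ratio 0.787).

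Differences between times passed the test for 2 genes. Kcne4 was lower at D7 than at D3 (-0.58 ± 0.13, adjusted p = 0.0354) and lower in Chronic than at D3 (-0.78 ± 0.13, adjusted p = 0.00193), and Kcnh8 was higher in Chronic than at D3 (0.44 ± 0.12, adjusted p = 0.0475).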

How the results depend on the processing

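No paired analysis was possible because no replicate number occurs in more than 1 group. The normexp background correction and the slide or scan block were not run, because the files used here give no background column and no slide or scan. Over 53 gene results and 29 alternatives, 1450 values kept their direction and their side of the 2-fold call. A further 74 lost the call, 12 gained it and 1 turned. That one was Kcnip2 at D7, at 0.10 as the mean over all its probes. Results without a 2-fold call that stopped passing the test count among the kept values, and many did, as given above.
The 2-fold calls at D3 (5) became 1 with the time-matched control array (an arm of 1, which by itself lowers the number that can pass) and 3 with the mean over probes. At D7 (4) they became 2 with scaling at the 75th percentile or with array weights, 1 with the time-matched control and 0 with the methods' t-test after Benjamini-Hochberg. In Chronic (3) they became 0 with quantile normalization, the time-matched control or the adjusted t-test.
Changed genes at any fold numbered 2 with the time-matched control at D3 (28). At D7 (25) they numbered 11 with quantile normalization, 14 at the 75th percentile and 0 with the adjusted t-test. In Chronic (17) they numbered 7 and 8 under the first 2 of these, and 32 and 5 with the t-test before and after adjustment. The mean over probes gave 11 in Chronic. Of all 33800 probes, 1878 rose and 1550 fell at D7 with quantile normalization, and 2627 and 2035 at the 75th percentile. In Chronic they were 1466 and 1263, and 2119 and 1754. The adjusted t-test gave 142 and 258 at D7, and 541 and 1091 in Chronic.
The Chronic median (-0.28) became -0.23 with quantile normalization, -0.17 at the 75th percentile, -0.34 with probes flagged G, -0.36 with the time-matched control and -0.25 with array weights.
Between D7 and D3 (1) the count was 0 with quantile normalization, the 75th percentile, the time-matched control, no intensity trend or the adjusted t-test, and 3 with the unadjusted one. Between Chronic and D3 (2) it was 1 with the time-matched control, no trend or the adjusted t-test, and 14 with the unadjusted one, and between Chronic and D7 (0) it was 5 with the unadjusted one. The Chronic against D7 median (0.04) turned to -0.0066 with array weights and to -0.066 without D7 replicate 33.
Leaving out single arrays gave 4 to 8, 1 to 4 and 0 to 5 2-fold calls at D3, D7 and Chronic and 0 to 0 between times. Changed genes ranged from 16 to 33, 8 to 29 and 1 to 25, and between times from 0 to 1 (D7 against D3), 1 to 2 (Chronic against D3) and 0 to 0 (Chronic against D7). Medians ranged from -0.46 to -0.36, -0.40 to -0.21 and -0.31 to -0.27, and between times from 0.01 to 0.18, 0.07 to 0.16 and -0.066 to 0.084. The arrays behind the widest moves are named above, and the cause was not tested. The low signal of 15 genes flagged L on at least 9 arrays limits what could be seen for them.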
